A study of Mus musculus with 6 samples.

Results

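Interferon-stimulated genes are the antiviral and antimicrobial genes that cells switch on when an interferon binds its receptor. The genes described here are 39 well-known members of that group, taken by name, and 34 of them could be read among 12393 genes measured in mouse lung. They were split into 28 genes that are mainly known as targets of type I interferon and 6 GTPase genes that are mainly known as targets of interferon gamma. The split is not strict, since Irf1 and Irf8, kept here with the first class, also respond to interferon gamma. Ddx58, Oas1g, Ifi44 and Xaf1 had no probe set with a single gene name here, and Isg15 shared its probe set with another name, so these 5 genes were not analysed here.

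RNA came from whole lung, homogenised after the trachea and large airways had been cut away, of wild-type C57BL/6J mice labelled male and aged 8 to 10 weeks. The 3 control mice received saline and are called A, B and C. The 3 treated mice received bleomycin at 1 mg/kg, a DNA-damaging drug that is widely used to cause lung fibrosis in mice, and are called D, E and F. All lungs were taken at day 14, with 1 Affymetrix MOE430A array for each mouse. The labels differ on the route of delivery, naming both the oropharynx and the trachea. One time point and 1 dose were studied, so an earlier or later interferon response is not covered.

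Type I interferons signal through the receptor chains Ifnar1 and Ifnar2 and the kinases Jak1 and Tyk2, which lead to a complex that holds Stat2 and Irf9 and binds a DNA element called the interferon-stimulated response element. Interferon gamma, made mainly by T and natural killer cells, signals through Ifngr1 and Ifngr2 and the kinases Jak1 and Jak2, and acts on a different element, the gamma-activated site. In the lung, the products of these genes restrict virus replication in epithelium and macrophages, and the gamma-induced GTPases attack the vacuoles in which microbes live inside cells.

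Values are log2 expression levels, so that a difference of 1 is a doubling. A gene was called where limma gave an adjusted p under 0.05, with the adjustment over all probe sets. Because no mouse was used for more than 1 array, error terms cover differences between mice. In homogenised lung, fewer cells of a type and less RNA per cell cannot be told apart. Xist, the RNA that silences an X chromosome in female cells, reached 11.40 on saline B, against a mean of 7.44 on the other arrays, and the Y-linked gene Eif2s3y stood at 4.05 there, against 7.66. Saline B therefore goes against its label of male, and the results that rest on it are also given without it. RNA quality was read from the Actb control probe sets, whose 3-prime minus 5-prime difference lay between 1.14 and 1.71 on the saline arrays and between 1.04 and 1.27 on the bleomycin arrays. For the Gapdh control probe sets it lay between 0.88 and 1.46 on the saline arrays and between 0.81 and 1.10 on the bleomycin arrays. For both controls saline A and C stood above every bleomycin array. The part of RNA quality in the differences was not tested. The lung genes Sftpc, Scgb1a1 and Ager stood above 12 on nearly every array, the exception being Ager at 11.80 on bleomycin D.

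The promoters of the called genes Ifit1 and Oas1a are shown first, because both carry the interferon-stimulated response element close to the start of the gene. The 250 bases before the RefSeq start are given, on build GRCm38.p6 and in the direction of the gene, with each match to GAAANNGAAA on either strand in capitals.
Ifit1 (chr19:34640639-34640888, plus strand): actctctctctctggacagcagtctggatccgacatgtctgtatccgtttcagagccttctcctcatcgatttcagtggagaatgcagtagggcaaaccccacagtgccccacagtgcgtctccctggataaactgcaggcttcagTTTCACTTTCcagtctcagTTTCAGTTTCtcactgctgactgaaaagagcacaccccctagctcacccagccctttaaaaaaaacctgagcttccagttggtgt
Oas1a (chr5:120907526-120907775, minus strand): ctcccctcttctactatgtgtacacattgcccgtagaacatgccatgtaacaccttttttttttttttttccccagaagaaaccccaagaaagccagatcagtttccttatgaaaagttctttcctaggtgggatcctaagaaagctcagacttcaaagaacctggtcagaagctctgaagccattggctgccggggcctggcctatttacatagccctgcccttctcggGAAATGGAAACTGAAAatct
In Ifit1 there were 2 separate matches, with first bases at -104 and -85 relative to the start. In Oas1a there were 2 overlapping matches, with first bases at -20 and -14.

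The element was not limited to the genes that were called. The next stretches show it, with up to 20 bases on each side, in genes that did not pass the test: Rsad2, Bst2 and Ifit3 among the type I induced genes, and Irgm1, Igtp, Gbp2 and Gbp3 among the GTPases.
Rsad2 (chr12:26456543-26456592, minus strand): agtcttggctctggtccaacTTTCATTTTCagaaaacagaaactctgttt
Bst2 (chr8:71537567-71537622, minus strand): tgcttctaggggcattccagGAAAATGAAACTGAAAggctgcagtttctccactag
Ifit3 (chr19:34583353-34583436, plus strand): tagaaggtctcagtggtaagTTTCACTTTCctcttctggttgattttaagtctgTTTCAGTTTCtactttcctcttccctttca
Irgm1 (chr11:48871421-48871470, minus strand): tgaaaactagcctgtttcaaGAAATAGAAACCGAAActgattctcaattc
Igtp (chr11:58199502-58199551, plus strand): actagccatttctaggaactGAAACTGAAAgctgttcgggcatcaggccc
Gbp2 (chr3:142620584-142620633, plus strand): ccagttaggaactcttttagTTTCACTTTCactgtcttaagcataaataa
Gbp3 (chr3:142559979-142560034, plus strand): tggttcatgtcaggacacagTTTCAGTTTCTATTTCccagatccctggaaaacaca
RefSeq windows of 300 bases (250 before and 50 after the start) were listed for 27 of the 34 genes, 36 windows in all. GAAANNGAAA was found in 14 of these 36 windows, belonging to 14 genes, against 3.44% of all 32851 windows. It was present for 10 of the 22 type I induced genes and 4 of the 5 GTPases with a window. The gamma-activated site TTCNNNGAA, which reads the same on both strands, was found in 11 of the 36 windows, against 8.3% of all windows. It was present for 10 of the 22 type I induced genes and for 1 of the 5 GTPases. Irf1 and Irf8, both with the site before their start, are shown with it in capitals.
Irf1 (chr11:53769904-53769952, plus strand): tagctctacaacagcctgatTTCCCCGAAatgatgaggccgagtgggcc
Irf8 (chr8:120736167-120736233, plus strand): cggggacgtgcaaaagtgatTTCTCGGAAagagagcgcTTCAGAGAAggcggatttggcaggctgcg
A match describes letters in a window and does not show that a factor was bound there.

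Few interferon-stimulated genes differed past the test between bleomycin and saline lungs at day 14. Of the 34 genes, 2 rose, Ifit1 and Oas1a, and 0 fell. Over all genes 5.6% were called, 3.7% higher and 1.9% lower, so the share of members called was close to that of genes in general. At an unadjusted p of 0.05 in limma, 10 members were higher and 2 lower, against 11.7% and 11% of all genes. The 3 bleomycin arrays lay wholly above the 3 saline arrays for 10 members (29.4%, against 13.3% of all genes), and wholly below for 2 (5.88%, against 14.6% of all genes). The count below was 4 without saline A (27.1% of all genes) and 6 without bleomycin F (18.7% of all genes). The median difference was 0.14 log2 units for the members (0.06 to 0.22 with 1 array left out) and -0.04 for all genes, and 26 of the 34 members (76.5%) had a positive difference, against 43.0% of all genes. The differences ran from -0.40 to 0.70. With the 95% interval of each gene's brightest probe set, a doubling in either direction lay within reach for only 4 of them, Oas1a, Mx1, Rsad2 and Zbp1.

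**Figure D1:**
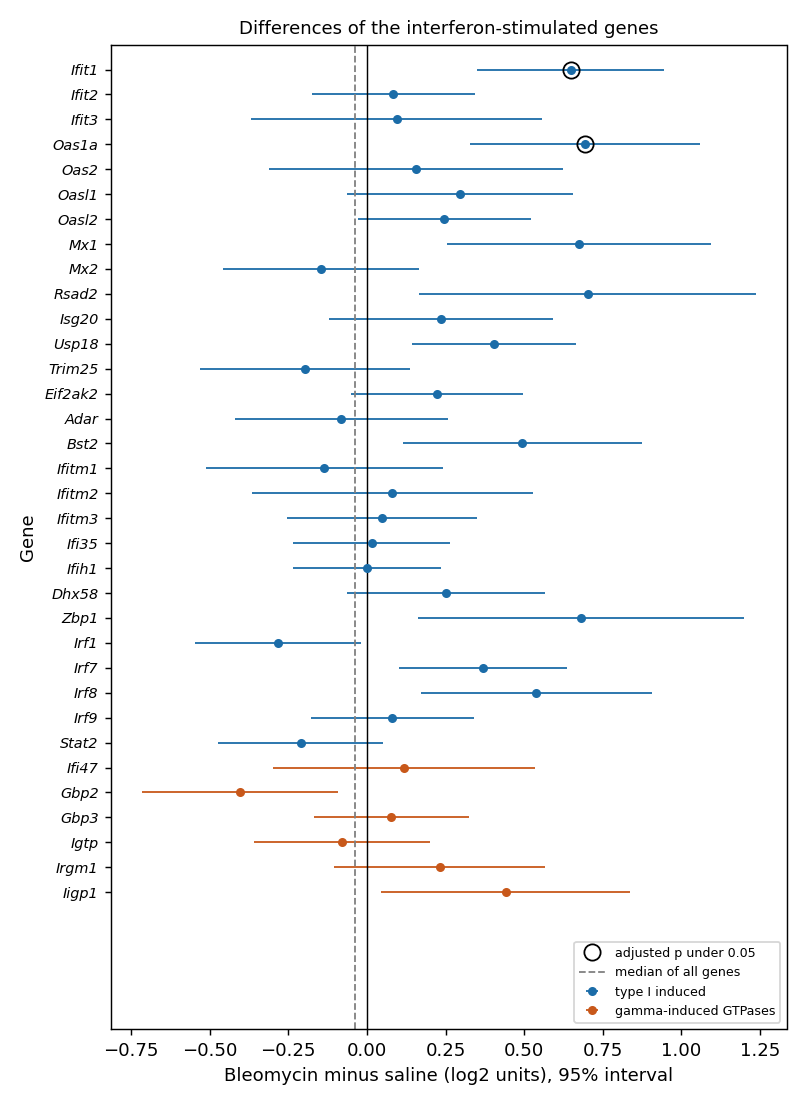
Difference between bleomycin and saline lungs for each of the 34 interferon-stimulated genes, in log2 units on the horizontal axis, with the 95% interval from limma (3 arrays per group). Black circles mark Ifit1 and Oas1a, which passed an adjusted p of 0.05, and the dashed line is the median of all genes at -0.04.

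Of the 5 largest differences, 4 belonged to Rsad2, Oas1a, Mx1 and Ifit1, whose products act against viruses inside the cell, and 1 to the sensor Zbp1. Ifit1, which binds viral RNA with incompletely methylated caps, stood at 8.51, 8.57 and 8.92 on saline A, B and C, and at 9.27, 9.31 and 9.37 on bleomycin D, E and F. All bleomycin arrays lay above all saline arrays, and they lay close together (SD of 0.05, n = 3). Ifit1 rose 1.57-fold (0.65 ± 0.13 log2 units, SE, limma adjusted p = 0.0308, higher in 3 of 3 bleomycin lungs). Oas1a, whose enzyme makes short oligoadenylates that activate RNase L, stood at 8.94, 9.14 and 9.43 in saline and at 9.76, 9.72 and 10.11 in bleomycin lungs. The groups did not overlap, and bleomycin F was the highest of the 6. Oas1a rose 1.62-fold (0.69 ± 0.16, SE, limma adjusted p = 0.0478, higher in 3 of 3). The probe set of Oas1a may also read its close relatives in the same gene cluster.

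Both calls lay near the threshold. The adjusted p was 0.0918 for Ifit1 and 0.118 for Oas1a when saline A was left out, and 0.0812 and 0.106 when saline B was. Neither passed without bleomycin D (0.0634 and 0.082), E (0.067 and 0.0644) or F (0.107 and 0.144), and both passed without saline C. In these 6 fits, each with 1 array fewer, the difference ran from 0.57 to 0.77 for Ifit1 and from 0.57 to 0.82 for Oas1a. With arrays centred on ribosomal protein genes neither passed (0.0657 and 0.0816), and with repeated quantile normalization Ifit1 did and Oas1a did not (0.0814).

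Mx1 and Rsad2 showed differences of the same size as the 2 called genes but with more spread. Mx1, a large GTPase against influenza viruses that in C57BL/6 mice carries a well-known disabling deletion, stood at 5.80, 5.64 and 6.27 in saline and at 6.54, 6.38 and 6.82 in bleomycin lungs. Its groups did not overlap, with a difference of 0.67 (95% interval 0.26 to 1.09, adjusted p = 0.0781). Of the fits with 1 array left out, it passed only without saline C (adjusted p = 0.0411). Rsad2, also called viperin, which makes a nucleotide that stops viral RNA chains, stood at 8.06, 8.64 and 8.76 in saline and at 8.74, 9.43 and 9.40 in bleomycin lungs. Bleomycin D lay just under saline C, so that the groups overlapped, and the difference was 0.70 (0.17 to 1.24, adjusted p = 0.133). The other 2 probe sets of Rsad2 differed by 0.50 and 0.74, with an adjusted p of 0.0569 and 0.0921, and on both of these the groups did not overlap.

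The close relatives of Ifit1 and Oas1a had smaller differences. Ifit2 stood at 7.76, 7.96 and 7.92 in saline and at 7.84, 7.99 and 8.06 in bleomycin lungs, and its difference was 0.08 (-0.17 to 0.34). Ifit3 stood at 9.55, 8.82 and 8.94 in saline and at 9.02, 9.13 and 9.45 in bleomycin lungs, a difference of 0.09 (-0.37 to 0.56). Saline A, the lowest array for Ifit1 and Ifit2, was the highest of all 6 for Ifit3. The difference between these genes in their response was not tested. Oas2, a second oligoadenylate synthetase, differed by 0.16 (-0.31 to 0.62), the related Oasl1 by 0.30 (-0.06 to 0.66) and Oasl2 by 0.25 (-0.03 to 0.52). Oas2 stood at 8.10 on saline A and at 8.54 to 8.95 on the other arrays, and without saline A the difference was -0.06. Mx2, a relative of Mx1, differed by -0.15 (-0.46 to 0.17), and the RNA exonuclease Isg20 by 0.23 (-0.12 to 0.59).

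**Figure D2:**
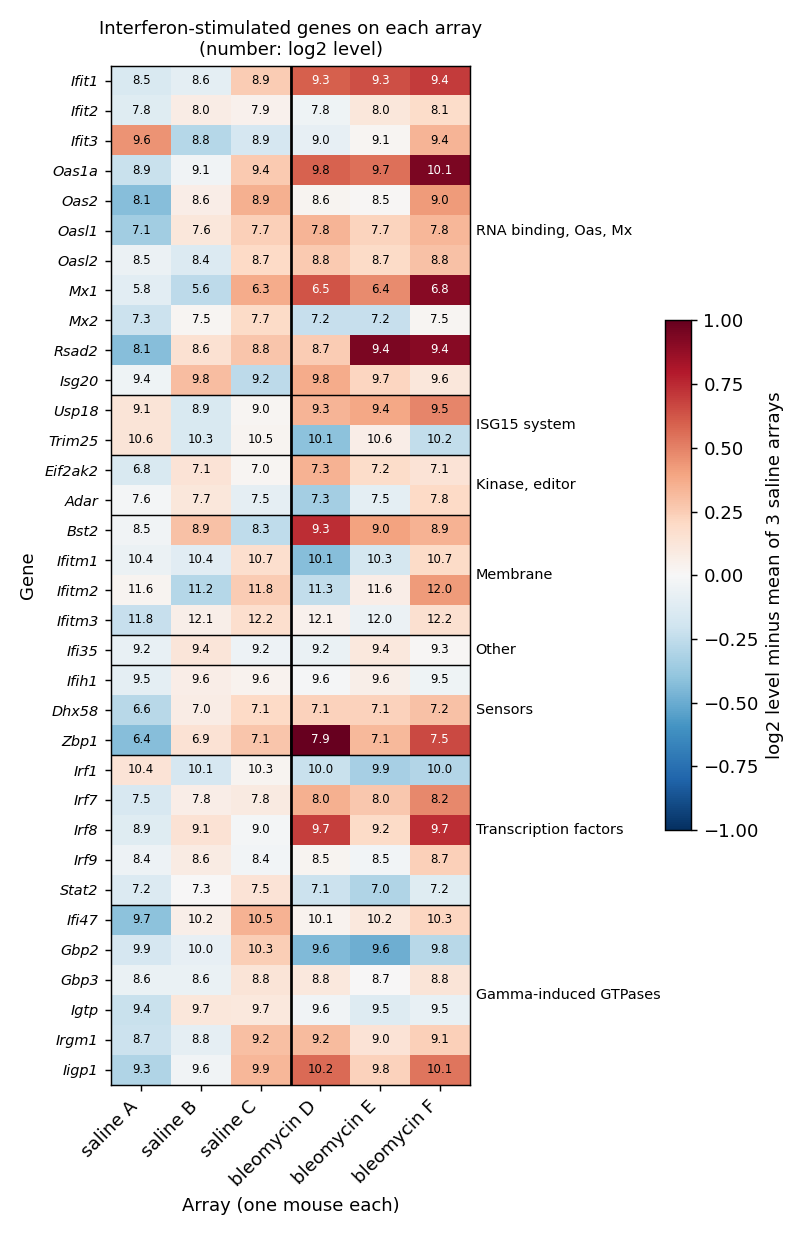
Level of each of the 34 interferon-stimulated genes (rows, grouped by role) on each of the 6 arrays (columns), with the log2 level printed in each cell. The colour is the level minus the mean of the 3 saline arrays of the same gene, in log2 units. Ifit1 and Oas1a are red on all 3 bleomycin arrays, and saline A is blue for most of the GTPases.

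Isg15 is a small interferon-induced protein that dedicated enzymes attach to other proteins. Among the members, only Usp18 and Trim25 of its system could be read. Usp18, which removes Isg15 and dampens the type I receptor, stood at 9.13, 8.85 and 9.02 in saline and at 9.34, 9.39 and 9.49 in bleomycin lungs. The groups did not overlap, and the difference was 0.40 (0.14 to 0.67, adjusted p = 0.0869). Trim25, a ubiquitin ligase that helps to activate RNA sensing, differed by -0.20 (-0.53 to 0.14), with bleomycin D lowest at 10.08 and bleomycin E at 10.56, within the saline range. Of its other 2 probe sets, 1 differed by -0.15 and 1 by 0.19. Usp18 and Rsad2 were called with array weights (adjusted p = 0.0366 and 0.0474).

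Among the enzymes that act on double-stranded RNA, Eif2ak2, the kinase PKR that stops translation, stood at 6.82, 7.11 and 6.997 in saline and at 7.33, 7.16 and 7.11 in bleomycin lungs. The groups did not overlap, but bleomycin F exceeded saline B by very little, and the difference was 0.22 (-0.05 to 0.50, adjusted p = 0.327). Its second probe set differed by 0.28, with overlap. The RNA editor Adar differed by -0.08 (-0.42 to 0.26). Its bleomycin lungs ranged from 7.28 to 7.82, a range that encloses all 3 saline values.

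Bst2, also called tetherin, which holds new virus particles at the cell surface, stood at 8.55, 8.87 and 8.33 in saline and at 9.32, 8.98 and 8.93 in bleomycin lungs, without overlap, and the difference was 0.49 (0.11 to 0.87, adjusted p = 0.135). The Ifitm proteins block the fusion of viruses with cell membranes. Ifitm1 differed by -0.14 (-0.51 to 0.24), Ifitm2 by 0.08 (-0.37 to 0.53) and Ifitm3 by 0.05 (-0.25 to 0.35), and the groups overlapped for each of them. The interval of Ifitm3 leaves room for a rise of at most 1.28-fold. Ifi35, a partner of Nmi in immune signalling, differed by 0.02 (-0.23 to 0.27).

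None of the 3 sensors of nucleic acids passed the test. Zbp1, which binds Z-form nucleic acids and can start cell death, stood at 6.37, 6.94 and 7.07 in saline and at 7.85, 7.12 and 7.46 in bleomycin lungs. Bleomycin D was the highest, and bleomycin E exceeded saline C by little. The difference was 0.68 (0.16 to 1.20, adjusted p = 0.133), while its second, dimmer probe set differed by 0.06. Ifih1, a sensor of long double-stranded RNA, stood between 9.48 and 9.64 on all 6 arrays, and its difference was 0.00 (-0.23 to 0.24). Dhx58, which regulates these sensors, differed by 0.25 (-0.06 to 0.57) on its brightest probe set, where the groups did not overlap. Its other probe sets differed by 0.01 and -0.32, so the direction rests on the choice of probe set: the mean of the 3 differed by -0.02.

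Differences of either sign were found among the transcription factors of the response, and none passed the test. Irf7, which drives production of type I interferon and is itself induced by it, stood at 7.53, 7.75 and 7.78 in saline and at 8.04, 7.96 and 8.17 in bleomycin lungs. The groups did not overlap, and the difference was 0.37 (0.10 to 0.64, adjusted p = 0.117). Irf8, a factor of macrophage and dendritic cell development, stood at 8.86, 9.13 and 8.97 in saline and at 9.67, 9.18 and 9.72 in bleomycin lungs. Bleomycin E was close to saline B, and the difference was 0.54 (0.17 to 0.91, adjusted p = 0.0988). Without bleomycin E it was 0.71, with an adjusted p of 0.034, and Irf8 passed in no other fit with 1 array left out. Its second probe set differed by 0.17, with overlap.

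Irf1, which is induced early by interferon gamma, stood at 10.41, 10.10 and 10.30 in saline and at 10.05, 9.94 and 9.98 in bleomycin lungs. Here the bleomycin arrays were all below the saline arrays, and the difference was -0.28 (-0.55 to -0.02, adjusted p = 0.202). Stat2 differed by -0.21 (-0.47 to 0.05) on its brighter probe set and by 0.33 on the other, and Irf9, its partner in the type I complex, by 0.08 (-0.18 to 0.34).

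Of the 6 gamma-induced GTPases, 0 rose and 0 fell in limma. At an unadjusted p of 0.05, 1 was higher and 1 lower, against 11.7% and 11% of all genes. The median difference of the GTPases was 0.10, against 0.19 for the type I induced genes, and this gap was not tested. With saline A left out the medians were -0.02 and 0.12. For none of the 6 did the bleomycin arrays lie wholly above the saline arrays, while they did for 10 of the 28 type I induced genes and for 13.3% of all genes. At that background a count of 0 of 6 is not a result about the GTPases. Without saline C they did for 3 of the 6 and 13 of the 28, against 16.2% of all genes. On the brightest probe set of each gene, the 95% intervals of all 6 GTPases stayed within 1 log2 unit of 0. The largest upper bound there was 0.84, for Iigp1. The second probe set of Iigp1 had a larger difference and SE (0.54 ± 0.20, SE).

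Iigp1, a GTPase that coats parasite vacuoles, stood at 9.31, 9.58 and 9.94 in saline and at 10.17, 9.84 and 10.14 in bleomycin lungs. Bleomycin E lay below saline C, and the difference was 0.44 (0.045 to 0.84, adjusted p = 0.188), with 0.54 on its second probe set. Gbp2, a guanylate-binding protein, had a difference of the opposite sign. It stood at 9.89, 9.97 and 10.30 in saline and at 9.61, 9.56 and 9.78 in bleomycin lungs, without overlap, a difference of -0.40 (-0.71 to -0.09, adjusted p = 0.135). Its second probe set differed by -0.21, with overlap.

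The other 4 GTPases had values that overlapped between groups. Irgm1, which controls the other GTPases of its family, differed by 0.23 (-0.11 to 0.57), Ifi47 by 0.12 (-0.30 to 0.54), Gbp3 by 0.08 (-0.17 to 0.32) and Igtp by -0.08 (-0.36 to 0.20). Ifi47 stood at 9.71, 10.17 and 10.46 in saline and at 10.15, 10.22 and 10.33 in bleomycin lungs. The saline lungs spanned the whole range of the bleomycin lungs, as they did for Igtp and Gbp3.

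The 3 saline mice differed among themselves in these genes, with a median SD over the members of 0.20 log2 units in saline and 0.12 in bleomycin lungs. Over all genes the median SD was 0.16 in saline and 0.13 in bleomycin lungs. Saline A was the lowest saline array for 23 of the 34 members (67.6%, against 40.9% of all genes) and for all 6 GTPases. Saline C was the highest for 20 members (58.8%, against 32.7% of all genes) and for 5 of the 6 GTPases. The median GTPase level, relative to the saline mean of each gene, was -0.22, -0.05 and 0.28 on saline A, B and C, and 0.07, 0.06 and 0.17 on bleomycin D, E and F. The saline lungs thus spanned more than the bleomycin lungs. For the type I induced genes these medians were -0.11, 0.06 and 0.11 in saline and 0.135, 0.15 and 0.29 in bleomycin lungs, so that bleomycin D lay just above saline C.

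The GTPase median depended on the saline mice used. It was -0.02 without saline A, with 3 of 6 differences positive, 0.10 without saline B and 0.22 without saline C. Over all members the median was 0.10, 0.16 and 0.22 without saline A, B and C, and 0.17, 0.18 and 0.06 without bleomycin D, E and F. The positive differences then numbered 21, 24, 25, 28, 24 and 23 of 34, in the same order. The count of members with all bleomycin arrays above saline was 11 without saline A (17.8% of all genes), 12 without saline B (18.1% of all genes) and 16 without saline C (16.2% of all genes). Several lists of immune cell markers were also low on saline A. It was the lowest saline array for 8 of 9 T and natural killer cell genes, against 40.9% of all genes. The same held for 3 of 3 B cell genes, 5 of 5 neutrophil genes and 5 of 6 dendritic cell genes. Of the macrophage genes it was the lowest for 5 of 10. The part of these cells in the low levels of interferon-stimulated genes on saline A was not tested.

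**Figure D3:**
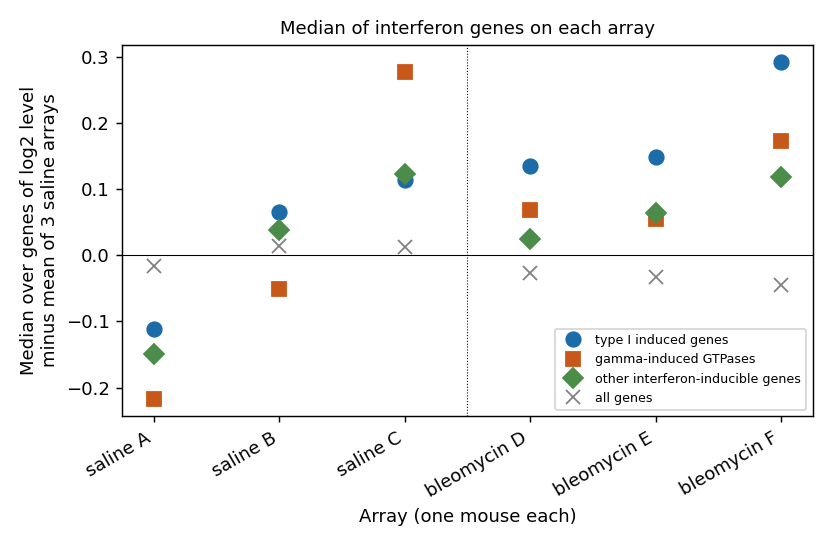
Median level of the type I induced genes, the gamma-induced GTPases, 26 other interferon-inducible genes and all genes on each array, each gene taken relative to the mean of its 3 saline values (log2 units). The GTPases run from -0.22 to 0.28 over the saline arrays, which encloses the 3 bleomycin arrays.

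The rest of the pathway was read through lists of its other genes. Over all genes 3.7% were called higher and 1.9% lower. At an unadjusted p of 0.05 in limma, 11.7% were higher and 11% lower. Of 14 interferon genes 8 could be read, and 0 rose and 0 fell in limma, with 0 higher and 2 lower at an unadjusted p of 0.05. Ifng stood at 4.81, 4.71 and 4.95 in saline and at 4.80, 4.71 and 4.73 in bleomycin lungs. Ifnb1 stood between 5.51 and 5.68 in saline and between 5.34 and 5.68 in bleomycin lungs. Ifna2 stood at 6.37, 6.74 and 6.73 in saline and at 6.03, 6.14 and 6.15 in bleomycin lungs, without overlap, a difference of -0.51 (adjusted p = 0.0653). It passed without saline A (0.0486), with array weights (0.0261), with centring on ribosomal protein genes (0.0492) and with the mean of a gene's probe sets (0.0446). Leaving out any other array instead gave Ifna2 an adjusted p between 0.117 and 0.179, above the threshold, with 0.152 for saline B. Under the remaining alternatives at the threshold of 0.05 its adjusted p was 0.0567 to 0.0640. Ifna1 differed by -0.35 (adjusted p = 0.187). Differences were -0.12 for Ifna4, -0.19 for Ifna5, -0.03 for Ifna9 and 0.00 for Ifna11. Ranked by mean level among all genes, the 8 interferon genes stood from percentile 2.84 (Ifna11) to 25.9 (Ifna1). Detection calls were not used here, so it was not examined whether these interferon probe sets stood above background. A lack of difference on such dim probe sets therefore does not show that interferon RNA was unchanged.

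Of the 5 receptor genes read, 0 were called, with 0 at an unadjusted p of 0.05. Ifnar1 differed by 0.02, Ifnar2 by 0.23, Ifngr1 by 0.15, Ifngr2 by 0.44 (adjusted p = 0.264) and Il10rb, a chain of the lambda interferon receptor, by 0.11. Of 9 signalling genes 1 rose and 0 fell. Socs3, an inhibitor of cytokine signalling that is induced chiefly through Stat3, stood at 9.24, 8.92 and 9.80 in saline and at 11.44, 10.91 and 10.61 in bleomycin lungs. It rose 3.18-fold (limma adjusted p = 0.0122, and 0.068 without saline A). Socs1, the inhibitor most tied to interferon signalling, differed by 0.13 (adjusted p = 0.657). Jak1 differed by 0.35 (adjusted p = 0.216), Jak2 by -0.01 and Tyk2 by 0.05. Ptpn6, a phosphatase that dampens signalling, was called higher only without probe sets ending in _s_at or _x_at, where another of its probe sets was read.

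Of 13 genes of nucleic acid sensing 1 rose and 0 fell. Unc93b1, which carries Toll-like receptors to endosomes, stood at 8.85, 8.85 and 8.498 in saline and at 9.38, 9.32 and 9.63 in bleomycin lungs. It rose 1.64-fold (limma adjusted p = 0.0285). The call was lost without saline A (0.0711), saline C (0.0764), bleomycin D (0.0572) or bleomycin F (0.1). All bleomycin arrays lay above all saline arrays for 7 of the 13 (53.8%, against 13.3% of all genes). Among these, Tlr7 differed by 0.61 (adjusted p = 0.138), the DNA-sensing adaptor Sting1 by 0.63 (adjusted p = 0.161) and Irf5 by 0.66 (adjusted p = 0.073). Irf5 passed without bleomycin E (0.0475). In the other fits with 1 array left out, Irf5 did not pass (0.0799 to 0.168). With the mean of a gene's probe sets Tlr7 differed by 0.13 and Irf5 by 0.22.

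Of 26 other interferon-inducible genes that could be read, 2 rose and 0 fell. Ifi30, a thiol reductase of lysosomes that antigen-presenting cells use, rose 1.78-fold (limma adjusted p = 0.0315). Cxcl10, a chemokine induced by either kind of interferon, stood at 6.86, 7.06 and 7.38 in saline and at 8.34, 7.57 and 8.14 in bleomycin lungs and rose 1.89-fold (limma adjusted p = 0.0478). Of the fits with 1 array left out, Cxcl10 passed only without bleomycin E, and Ifi30 only without saline B or bleomycin E. Cxcl10 did not pass with arrays centred on ribosomal protein genes (0.0629). Cxcl9, a chemokine of the same receptor that depends on interferon gamma, stood at 5.94, 6.34 and 7.81 in saline and at 7.86, 7.33 and 7.37 in bleomycin lungs, so that saline C was among the highest. The difference of Cxcl9 was 0.83 (adjusted p = 0.300), and without saline C it was 1.38 and passed (0.0196). In the other fits with 1 array left out, Cxcl9 did not pass (0.334 to 0.544). The median of these 26 genes was 0.10.

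Markers of macrophages were higher in the bleomycin lungs. Of 10 macrophage genes, 7 rose and 0 fell, against 3.7% and 1.9% of all genes. The median difference of the macrophage genes was 1.13 log2 units. Their mean level was 9.26 to 9.58 on the saline arrays and 10.87 to 11.02 on the bleomycin arrays. Leaving out any 1 array kept 6 or 7 of them called higher. Of 6 dendritic cell genes 1 rose and 0 fell: Itgax, which macrophages also express, differed by 1.81 (limma adjusted p = 0.000429). Of 6 endothelial genes 0 rose and 1 fell, with a median of -0.40 and 6 of 6 differences negative. Kdr, a receptor of vascular growth factor, differed by -0.86 (limma adjusted p = 0.0148), and it did not pass without saline A (0.0584) or bleomycin F (0.0508). Of 7 lung tissue genes, which include Pecam1 and Cdh5 of the endothelial list, 0 were called in limma, with 0 at an unadjusted p of 0.05 and 7 of 7 differences negative (median -0.19). Over all genes 7060 of 12393 differences were negative, with a median of -0.04. At an unadjusted p of 0.05 in limma, 11.7% of all genes were higher and 11% lower. The part of these cell types in the differences of Ifit1, Oas1a, Irf8, Unc93b1 and Ifi30 was not tested. Of the plasmacytoid dendritic cell list, a cell type known for making type I interferon, 5 of 6 genes were read and 0 were called, with 0 at an unadjusted p of 0.05 and a median of -0.15. The gene of that list that could not be read was Siglech. Of 9 T and natural killer cell genes 0 were called in limma, with 0 higher and 1 lower at an unadjusted p of 0.05 and a median of -0.13. Of 5 neutrophil genes and 3 B cell genes 0 were called, with 0 at an unadjusted p of 0.05 and medians of -0.32 and -0.44. Single arrays moved these medians. In the same order they were -0.16 and -0.11 without saline B, 0.10 and -0.05 without bleomycin D, and -0.69 and -0.77 without bleomycin F.

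**Figure D4:**
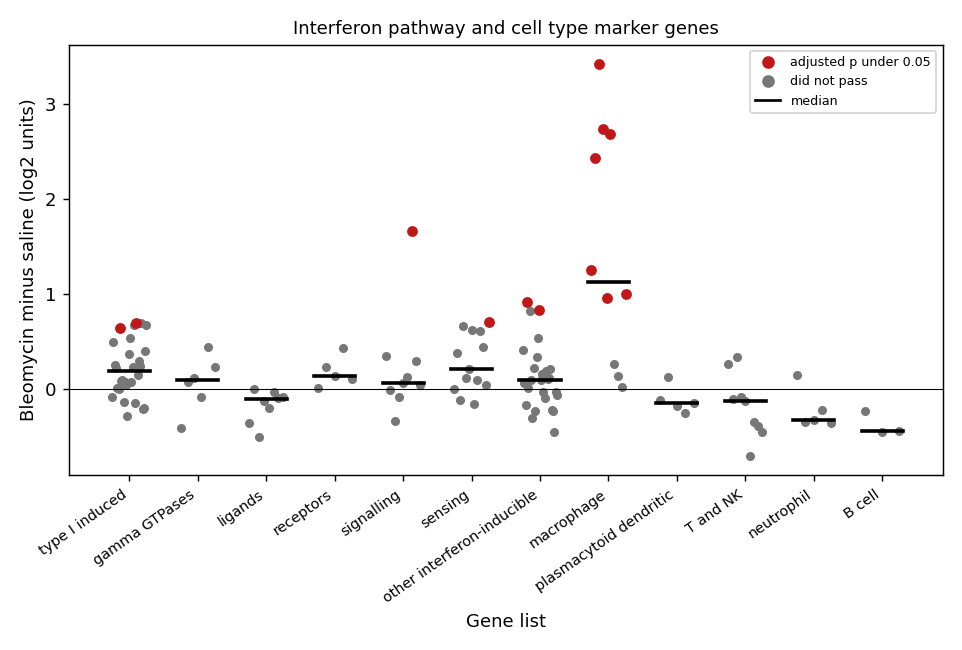
Difference between bleomycin and saline lungs (log2 units, vertical axis) for each gene of the interferon lists and of 5 cell type lists, with the median of each list as a black bar and genes with an adjusted p under 0.05 in red. The median is 0.19 for type I induced genes, 0.10 for the GTPases and 1.13 for macrophage genes.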

How the data were processed

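Gene expression was measured in 6 mouse lungs on Affymetrix MOE430A arrays, 3 after saline and 3 after bleomycin. The deposited log2 levels, 1 for each probe set, come from RMA with quantile normalization by the authors, as the submitters' processing notes and the series' design text say. The sources used here do not give a software version or chip definition. That the base of the logarithm is 2 was taken from the range of the values.

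Of 22690 probe sets, 64 controls were left out and 22626 were tested. Names came from GEO's platform annotation, updated by Entrez ID to RefSeq symbols (20351 matched), and the 691 probe sets with several symbols and the 1555 with none were not named. A gene with several probe sets was read by the one whose mean level was highest. Groups were compared in R 4.3.3 with limma 3.58.1 (lmFit, eBayes, no covariates), with Benjamini-Hochberg adjustment over all tested probe sets and a threshold of 0.05. Intervals are 95% intervals from the moderated standard error. The number of arrays limits the precision. Tested on simulated data for this comparison, with 22626 probe sets, the fit found 85 of 100 differences of 1 log2 unit and 100 of 100 of 2 log2 units, and 7 of its 192 calls were false. The simulated errors were independent between probe sets, and all simulated differences were rises. Differences under 1 log2 unit, the size seen for every member, were not simulated, so their recovery is not known. Motifs were searched in RefSeq windows of GRCm38.p6. Python 3.11.15 with matplotlib 3.10.9 drew the figures.

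The members and lists were chosen with earlier results of these data known. All members with a probe set are named. From the other lists, called genes, the largest difference of a list with no call, all interferons, all receptors and the kinases are named. Socs1, Tlr7, Irf5, Sting1, Cxcl9 and Ptpn6 were named after their values were seen. Marker lists are given as counts, with Itgax and Kdr named as the calls of their lists and Siglech as a gene not read. Alternatives were a filter on dim probe sets, another variance prior, array weights, normalization, centring, the choice of probe sets, adjustment and threshold, and leaving out each array. Counts without overlap and of positive differences under each alternative were chosen after seeing the data.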

Additional observations from a re-analysis of the deposited data

How the results depend on the processing

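The count of members called higher, 2 with all arrays, was 4 with array weights, 1 with repeated quantile normalization, 0 with centring on ribosomal protein genes and 5 at an adjusted p of 0.1, and it ranged from 0 to 3 with 1 array left out. The type I induced genes alone gave the same counts. No member was called lower and no GTPase higher under any alternative run. The count stayed at 2, with Ifit1 and Oas1a, without dim probe sets, with a trended robust prior, with the mean of a gene's probe sets, without probe sets ending in _s_at or _x_at and with adjustment over 1 probe set per gene. Positive differences numbered 23 of 34 with repeated quantile normalization and 23 with centring. Centring moved the median over all genes from -0.04 to -0.09. The members' median of 0.14 was 0.088 with repeated quantile normalization and 0.082 with centring. The GTPase median of 0.10 was 0.061 with array weights, 0.055 with repeated quantile normalization and 0.043 with centring, and the type I median of 0.19 was 0.12 with the mean of a gene's probe sets.

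The sign of 11 members, none of them called, changed under some alternative. With array weights Ifih1 differed by -0.023 and Adar by 0.047. With repeated quantile normalization Ifih1 differed by -0.053, Ifitm3 by -0.043 and Ifi35 by -0.032, and with centring by -0.054, -0.0071 and -0.039. With the mean of a gene's probe sets Dhx58 differed by -0.019 and Stat2 by 0.060. With 1 array left out, the ranges were -0.086 to 0.29 for Ifi47, -0.047 to 0.033 for Ifih1, -0.049 to 0.32 for Ifit3, -0.056 to 0.33 for Oas2, -0.22 to 0.049 for Adar, -0.30 to 0.0076 for Ifitm1, -0.093 to 0.25 for Ifitm2, -0.067 to 0.13 for Ifitm3 and -0.029 to 0.077 for Ifi35. The cause was not tested, apart from the fewer arrays of these last fits.

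Signal over background and saturation were not examined, since scanner files were not used here.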
